A study of Mus musculus with 9 samples.

Results

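Integrins are adhesion receptors made of an alpha and a beta chain. Lymphocytes use them to hold on to vessel walls, tissue matrix and target cells, and which partner a chain takes decides what the pair binds. The 10 chains described here are 7 alpha chains (Itga1, Itga2, Itga4, Itgav, Itgal, Itgam and Itgax) and 3 beta chains (Itgb1, Itgb2 and Itgb3). They were chosen as a list of gene symbols in the annotation of the array, out of 22180 genes that had a probe set of their own. Probe sets that were as bright as the median probe set on 3 or more of the 9 arrays were tested, and all 10 chains were among these 12579 genes. Each chain had 1 probe set except Itgav, for which the brighter of 2 was used.

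In natural killer (NK) cells, Itgal and Itgb2 form LFA-1, the receptor for ICAM-1 that fastens the cell to its target. Itgam and Itgax pair with Itgb2 as the complement receptors CD11b/CD18 and CD11c/CD18, and CD11b is a standard marker of mature mouse NK cells. Itga1 (CD49a) and Itga2 (CD49b) pair with Itgb1 and bind collagens and laminins. CD49a marks type 1 innate lymphoid cells and tissue-resident NK cells, whereas CD49b is the antigen of the DX5 antibody.

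The cells were splenic NK cells of female C57BL/6N mice that were wild type (WT), lacked the Janus kinase Tyk2 (Tyk2-/-) or carried its kinase-inactive form (Tyk2K923E). Each culture held cells of 3 to 4 mice, which were pooled, picked with DX5 beads and expanded with human IL-2 (5000 U/ml) over 7 days, so all groups were selected through the product of Itga2 at the start. There were 3 independent experiments with 1 array for each genotype, 9 arrays in all. Values are RMA log2 values, in which a step of 1 is a doubling of the signal, and levels of different genes are not compared, since probe sets differ in brightness.

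The array medians lay between 5.42 and 5.48. Having only 3 arrays of each genotype sets the precision. Arrays of experiment 1 stood apart: in 33.2% of the genes tested they did not overlap those of experiments 2 and 3, and among the chains this was so for Itgam and Itgb3. Genotypes were therefore compared within experiments, in a limma fit with the experiment as a block (the paired fit), with Benjamini-Hochberg adjustment over all 12579 genes and a threshold of 0.05. The targeted gene gave no check of the labels: the probe set of Tyk2 read 9.55, 8.63 and 8.85 on the arrays labelled Tyk2-/- against 8.62 ± 0.06 (SD, n = 3) in WT, and the deleted part is not given in the sources used here. Of the 14 NK cell markers listed, 13 had a probe set and all 13 passed the filter. Of 11 T cell markers with a probe set 10 passed too, with Cd3e between 10.49 and 11.80. Passing the filter therefore does not tell NK cells from T cells.

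In both mutants Itga1, Itga2, Itgam and Itgax read lower than in WT, in each of the 3 experiments. These 4 of 10 chains had WT as the highest array of every experiment, a pattern seen in 5.08% of all genes tested. After adjustment 1 chain fell in each mutant: Itga1 in Tyk2-/- cells and Itga2 in Tyk2K923E cells. The beta chains and Itgal, Itga4 and Itgav did not pass in any comparison. In each mutant 11 genes, 0.0874% of all, passed in either direction and 8 genes, 0.0636%, passed as lower. The mutants share the WT arrays, so their differences from WT are not independent of each other.

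**Figure D1:**
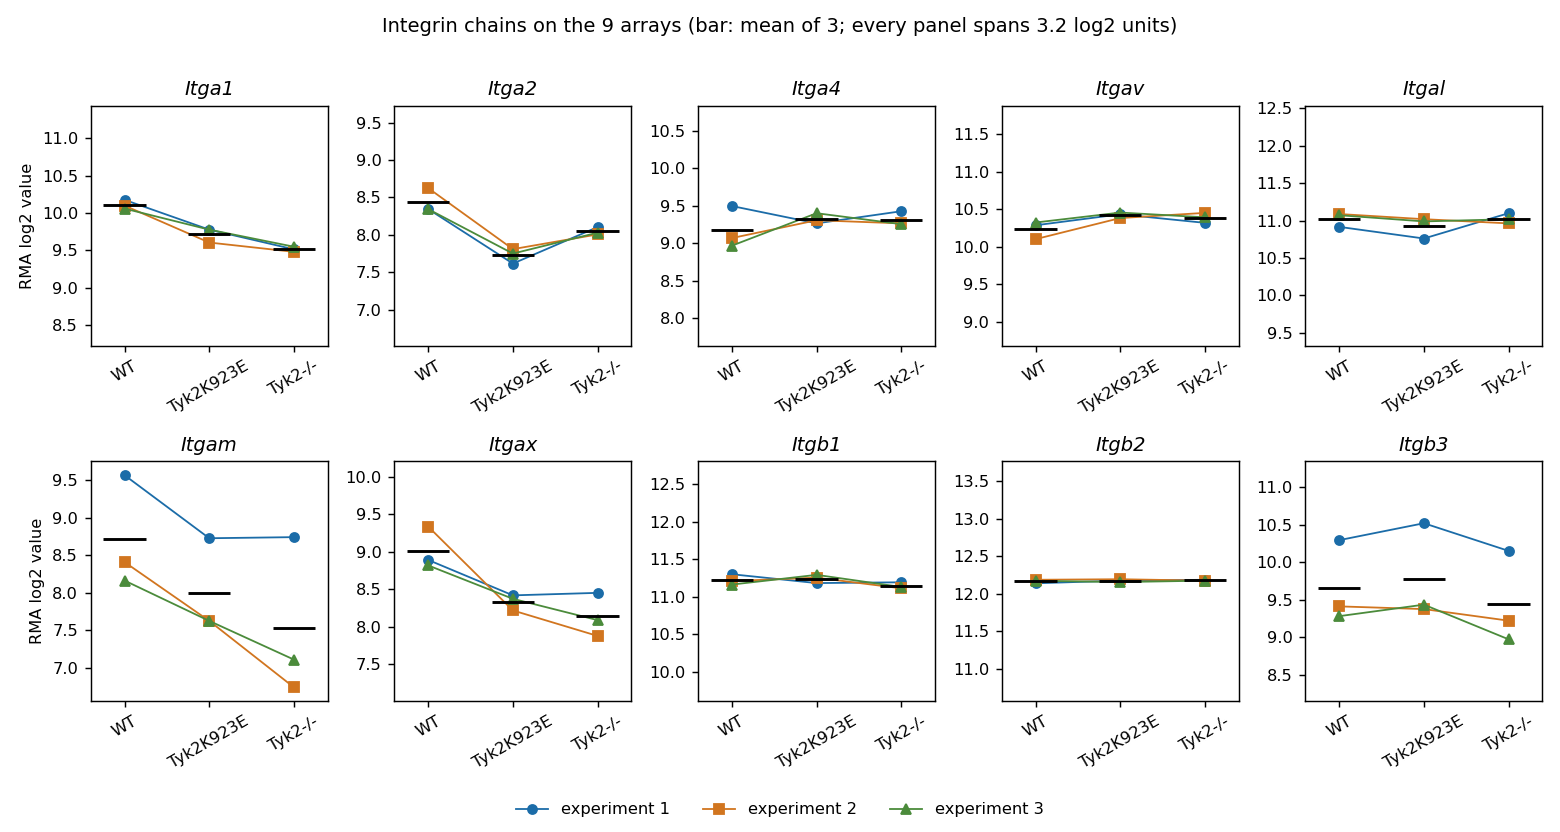
RMA log2 values (y axis) of the 10 integrin chains on the 9 arrays, by genotype (x axis), with points of 1 experiment joined by a line and a black bar at the mean of 3 arrays. WT is highest in every experiment for Itga1, Itga2, Itgam and Itgax, experiment 1 lies apart for Itgam and Itgb3, and Itgb2 stays within 12.14 to 12.19.

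Itga1, the alpha chain CD49a, read 10.18, 10.10 and 10.06 in the WT arrays of experiments 1 to 3, 9.78, 9.61 and 9.78 in Tyk2K923E, and 9.51, 9.48 and 9.55 in Tyk2-/-. The 3 genotypes did not overlap, with WT highest and Tyk2-/- lowest. From WT to Tyk2-/- Itga1 fell by 0.60 on the log2 scale (SE 0.06, 95% interval -0.74 to -0.45), from 10.11 ± 0.06 to 9.52 ± 0.03 (SD, n = 3), a 1.51-fold difference with a limma adjusted p of 0.0345. Its unadjusted p was the fifth smallest of all genes tested. In Tyk2K923E its level was 9.72 ± 0.10 (SD, n = 3), a difference from WT of -0.39 (95% interval -0.54 to -0.24) that missed the threshold in limma (adjusted p = 0.0787). The mutants differed from each other by -0.21 in Itga1 (95% interval -0.35 to -0.06, Tyk2-/- minus Tyk2K923E), lower in Tyk2-/- in 3 of 3 experiments, and this did not pass in limma either (adjusted p = 0.452).

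The call of Itga1 in Tyk2-/- was not robust to the choice of arrays, although its size hardly moved. With the experiments unpaired the limma adjusted p of Itga1 was 0.0571, and 0 of 10 chains passed in Tyk2-/- (0.0318% of all genes did) or in Tyk2K923E (0.00795%), while 3 and 4 chains had an unadjusted p under 0.05, against 2.08% and 4.21% of all genes. Leaving out the array of experiment 1, 2 or 3 gave 0.145, 0.208 and 0.0977 for WT, 0.198, 0.105 and 0.172 for Tyk2-/-, and 0.0505, 0.0449 and 0.084 for Tyk2K923E, and without the whole of experiment 1, 2 or 3 it was 0.434, 0.296 and 0.405. The log2 difference of Itga1 stayed between -0.64 and -0.56 in all of these.

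Itga2, the alpha chain CD49b, read 8.34, 8.62 and 8.34 in WT, 7.62, 7.81 and 7.75 in Tyk2K923E, and 8.10, 8.01 and 8.03 in Tyk2-/-. Here too the genotypes did not overlap, but Tyk2K923E was the lowest in 3 of 3 experiments. From WT to Tyk2K923E Itga2 fell by 0.71 (SE 0.08, 95% interval -0.90 to -0.52), from 8.44 ± 0.16 to 7.73 ± 0.10 (SD, n = 3), a 1.64-fold difference with a limma adjusted p of 0.0375. In Tyk2-/- its level was 8.05 ± 0.05 (SD, n = 3), a difference from WT of -0.39 (95% interval -0.58 to -0.20) that did not pass in limma (adjusted p = 0.254). Tyk2-/- stood above Tyk2K923E by 0.32 in Itga2 (95% interval 0.13 to 0.51), and this difference did not pass (limma adjusted p = 0.452). The order of the mutants thus ran opposite ways in Itga1 and Itga2, with neither difference past the threshold.

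The call of Itga2 in Tyk2K923E was also lost in the unpaired limma fit, at an adjusted p of 0.155. Leaving out the array of experiment 1, 2 or 3 gave 0.143, 0.199 and 0.136 for WT, 0.201, 0.0832 and 0.163 for Tyk2K923E, and 0.0616, 0.0223 and 0.0874 for Tyk2-/-, and without experiment 1, 2 or 3 it was 0.319, 0.129 and 0.394. The log2 difference of Itga2 lay between -0.77 and -0.63 in these.

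**Figure D2:**
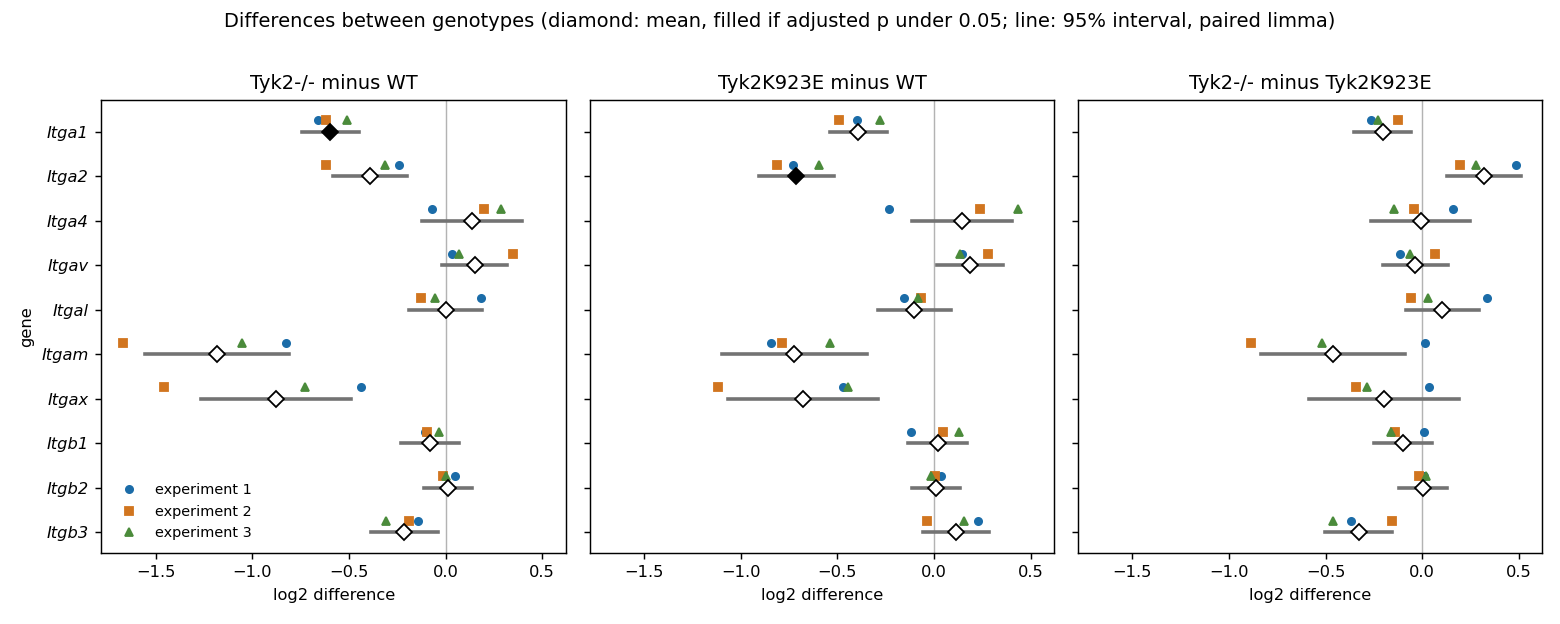
Log2 differences (x axis) of the 10 integrin chains (y axis) in the 3 comparisons, with a diamond at the mean (filled where the adjusted p is under 0.05), a line for the 95% interval of the paired limma fit and a small point for each experiment. The filled diamonds are Itga1 in Tyk2-/- minus WT (-0.60) and Itga2 in Tyk2K923E minus WT (-0.71).

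Itga1 and Itga2 lie side by side on mouse chromosome 13 in the RefSeq table of GRCm38.p6. Pelo, a factor that rescues stalled ribosomes, lies inside the span of Itga1. Its log2 difference from WT was 0.08 in Tyk2-/- and 0.02 in Tyk2K923E, and that of Mocs2, the coding gene on the far side of Itga2, was -0.07 and -0.03. None of these passed in limma, with adjusted p of 0.74 to 0.962. The 250 bases before the start of each gene, from RefSeq, are given 5′ to 3′ on the strand of the gene, to show what lies in front of 2 neighbouring chains that both read lower in the mutants. Itga1 lies on the minus strand (chr13:115101965-115102214, GRCm38.p6) and so does Itga2 (chr13:114932101-114932350).
Itga1: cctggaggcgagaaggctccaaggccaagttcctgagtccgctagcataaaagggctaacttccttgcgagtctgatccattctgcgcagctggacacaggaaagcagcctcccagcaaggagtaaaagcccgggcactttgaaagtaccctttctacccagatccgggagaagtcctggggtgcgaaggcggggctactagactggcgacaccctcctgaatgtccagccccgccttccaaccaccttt
Itga2: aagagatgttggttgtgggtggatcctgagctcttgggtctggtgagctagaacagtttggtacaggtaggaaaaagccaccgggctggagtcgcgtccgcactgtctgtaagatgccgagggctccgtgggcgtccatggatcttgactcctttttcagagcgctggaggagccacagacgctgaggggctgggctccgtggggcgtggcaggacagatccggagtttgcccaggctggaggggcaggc
Capitals would mark 4 motifs searched on both strands, and neither window held any: the palindromic STAT motif TTCNNNGAA, present in 7.02% of the 32851 windows of this length in the table, the core of the interferon-stimulated response element (2.98%), the Runx motif TGTGGT (14%) and the ETS motif GAGGAA of the PU.1 type (23.3%). That says only that these letters are not in these windows. The windows held 57.6% and 60.8% G and C, against a median of 52.4% over all windows.

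Itgam, the alpha chain CD11b, showed the widest spread of the chains. It read 9.57, 8.41 and 8.16 in WT, 8.73, 7.62 and 7.62 in Tyk2K923E, and 8.74, 6.74 and 7.11 in Tyk2-/-. All arrays of experiment 1 were high, so the genotypes overlapped, while within each experiment WT stood above both mutants. The difference from WT was -1.18 in Tyk2-/- (95% interval -1.56 to -0.81), with -0.83, -1.67 and -1.05 in experiments 1 to 3, and it missed the threshold (limma adjusted p = 0.0649 paired and 1 unpaired). Without experiment 2 the difference was -0.94 and without experiment 1 it was -1.36. In Tyk2K923E it was -0.72 (95% interval -1.10 to -0.35, limma adjusted p = 0.168). Tyk2-/- minus Tyk2K923E was -0.46 in Itgam and rested on experiments 2 and 3, with -0.89 and -0.52, whereas experiment 1 gave 0.01 (limma adjusted p = 0.455).

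Itgax, the alpha chain CD11c, is best known from dendritic cells and is also carried by mouse NK cells. It read 8.89, 9.34 and 8.82 in WT, 8.42, 8.22 and 8.37 in Tyk2K923E, and 8.45, 7.88 and 8.09 in Tyk2-/-. Each mutant lay below all WT arrays, and the mutants overlapped each other. Its difference from WT was -0.88 in Tyk2-/- (95% interval -1.27 to -0.49) and -0.68 in Tyk2K923E (95% interval -1.07 to -0.29). Neither passed in limma (adjusted p = 0.222 and 0.203). Experiment 2 had the widest gaps, -1.46 and -1.12, and without it the differences were -0.58 and -0.46. Without the WT array of experiment 2 alone they were -0.62 and -0.42.

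Itgam and Itgax are neighbours on chromosome 7, followed by Itgad, a further partner of Itgb2 that stayed below the filter. Pycard and Cox6a2, the nearest tested coding genes before and after this group, differed from WT by -0.33 and -0.49 in Tyk2-/- and by -0.16 and -0.37 in Tyk2K923E, with limma adjusted p of 0.245 to 0.647. Both chains lie on the plus strand, with the windows before the start at chr7:128062390-128062639 for Itgam and chr7:128129300-128129549 for Itgax (GRCm38.p6). For Itgax the start is that of the promoter table, which lies just inside the outermost span of the gene. They are shown because both chains read lower in the same 6 mutant arrays, and capitals mark matches to the 4 motifs.
Itgam: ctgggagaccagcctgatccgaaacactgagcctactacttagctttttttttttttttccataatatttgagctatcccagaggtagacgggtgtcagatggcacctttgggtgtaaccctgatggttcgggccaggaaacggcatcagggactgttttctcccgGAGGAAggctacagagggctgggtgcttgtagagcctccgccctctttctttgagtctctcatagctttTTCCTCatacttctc
Itgax: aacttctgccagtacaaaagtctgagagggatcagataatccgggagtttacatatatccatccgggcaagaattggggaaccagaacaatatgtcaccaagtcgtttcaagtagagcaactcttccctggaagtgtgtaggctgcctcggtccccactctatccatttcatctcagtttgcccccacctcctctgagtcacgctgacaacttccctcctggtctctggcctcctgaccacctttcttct
The ETS motif was found 2 times before Itgam, at 84 and 15 bases from the start (the second as TTCCTC, on the other strand), and none of the 4 motifs was found before Itgax. PU.1 is known as an activator of the CD11b promoter in myeloid cells, but a match of 6 bases is a description and not a site.

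Itgal, the alpha chain of LFA-1, read 10.92, 11.09 and 11.07 in WT, 10.76, 11.02 and 10.99 in Tyk2K923E, and 11.10, 10.96 and 11.02 in Tyk2-/-. The groups overlapped. Its difference from WT was 0.00 in Tyk2-/- (95% interval -0.19 to 0.19) and -0.10 in Tyk2K923E (95% interval -0.29 to 0.09). Itgb2, the beta chain that Itgal, Itgam and Itgax share, had the narrowest range of the 10 chains, from 12.14 to 12.19 over all arrays. It differed from WT by 0.01 in both mutants, with 95% intervals of -0.11 to 0.14 in Tyk2-/- and -0.12 to 0.13 in Tyk2K923E. The intervals of Itgb2 thus leave out a fall of the size measured in Itgam or Itgax on this log2 scale. Whether this brighter probe set responds to a change in RNA as theirs do is not known.

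Itgb1, the beta partner of Itga1, Itga2 and Itga4, read 11.30, 11.21 and 11.16 in WT, 11.18, 11.25 and 11.29 in Tyk2K923E, and 11.19, 11.11 and 11.13 in Tyk2-/-. The groups overlapped and the differences from WT were -0.08 in Tyk2-/- (95% interval -0.23 to 0.07) and 0.02 in Tyk2K923E (95% interval -0.13 to 0.17). Itga4, which with Itgb1 binds VCAM-1 and fibronectin, read 9.50, 9.07 and 8.97 in WT, 9.26, 9.31 and 9.40 in Tyk2K923E, and 9.43, 9.26 and 9.25 in Tyk2-/-. The WT array of experiment 1 was the highest and the other 2 WT arrays were the lowest of the 9. The differences of Itga4 were 0.14 and 0.15, with 95% intervals of -0.12 to 0.40 in Tyk2-/- and -0.11 to 0.40 in Tyk2K923E. They moved with single arrays. Without the WT array of experiment 1 or 3 the difference of Itga4 was 0.28 or 0.03 in Tyk2-/- and 0.29 or 0.04 in Tyk2K923E. Without the whole of experiment 1 or 3 it was 0.24 or 0.06 in Tyk2-/- and 0.34 or 0.0031 in Tyk2K923E, where it was 0.28 or 0.04 without the Tyk2K923E array of experiment 1 or 3.

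Itgav, the alpha chain of vitronectin receptors, ran the other way and had WT as the lowest array in every experiment, as had 5.72% of all genes. It read 10.28, 10.10 and 10.32 in WT, 10.43, 10.38 and 10.45 in Tyk2K923E, and 10.32, 10.45 and 10.39 in Tyk2-/-. All Tyk2K923E arrays lay above the WT arrays. The differences of 0.19 in Tyk2K923E (95% interval 0.02 to 0.36) and 0.15 in Tyk2-/- (95% interval -0.02 to 0.32) did not pass in limma (adjusted p = 0.439 and 0.587). In Tyk2-/- the difference of Itgav was 0.05 without experiment 2, 0.08 without its WT array and 0.07 without its Tyk2-/- array, and in Tyk2K923E it was 0.11 without the WT array of experiment 2. The dimmer probe set of Itgav lay between 4.78 and 5.47 and showed means of 5.01 in WT, 5.34 in Tyk2K923E and 5.25 in Tyk2-/-, the same order of genotypes.

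Itgb3 pairs with Itgav in vitronectin receptors and with Itga2b in platelets. It read 10.30, 9.41 and 9.28 in WT, 10.52, 9.38 and 9.43 in Tyk2K923E, and 10.15, 9.22 and 8.97 in Tyk2-/-. Experiment 1 stood above the others by 1.04 log2 units over the 3 genotypes, against 1.40 for Itgam and an absolute value of 0.14 for the median gene. Within experiments Tyk2-/- was the lowest in 3 of 3, by -0.33 against Tyk2K923E (95% interval -0.50 to -0.16) and by -0.21 against WT (95% interval -0.39 to -0.04). Neither passed in limma (adjusted p = 0.452 and 0.458). Of 6 platelet markers with a probe set, Pf4, Ppbp, Vwf and Gp5 lay under the median on all 9 arrays, while Gp9 and Itga2b passed the filter. Means of Itga2b were 5.84 in WT, 5.98 in Tyk2K923E and 5.98 in Tyk2-/-. Those of Gp9 were 5.79, 5.85 and 5.75. The summed level of the list was 7.72 to 7.84 in WT, 7.77 to 7.83 in Tyk2K923E and 7.76 to 7.82 in Tyk2-/-.

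**Figure D3:**
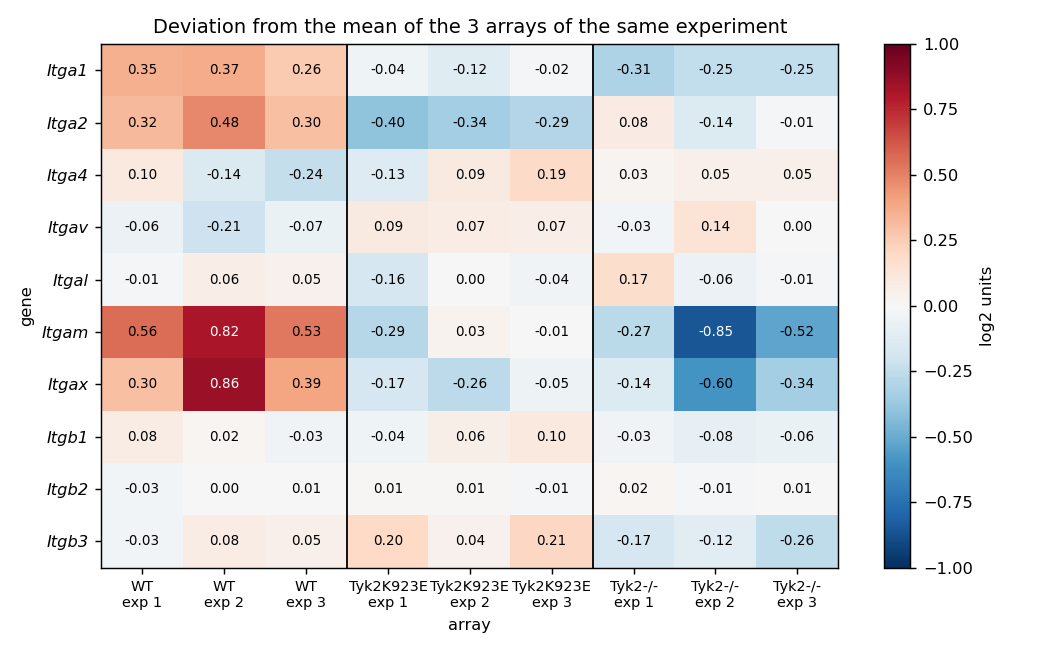
Log2 value of each integrin chain (rows) minus the mean of the 3 arrays of the same experiment, on the 9 arrays (columns), with the number in each cell. Itga1, Itga2, Itgam and Itgax are above 0 on each WT array, and on Tyk2-/- arrays Itgam reaches -0.85 and Itgax -0.60.

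Counted over the 10 chains, the median log2 difference was -0.15 in Tyk2-/- minus WT, -0.05 in Tyk2K923E minus WT and -0.07 in Tyk2-/- minus Tyk2K923E, where the median gene stood at 0.00 in each. An unadjusted p under 0.05 was reached by 5 chains in Tyk2-/-, all lower (Itga1, Itga2, Itgam, Itgax and Itgb3), where 4.66% of all genes did so as lower. In Tyk2K923E it was reached by 4 lower chains (Itga1, Itga2, Itgam and Itgax, against 5.14% of genes) and by Itgav as higher (4.87%). Values without overlap against WT were found in 3 lower chains in each mutant (Itga1, Itga2 and Itgax), against 2.74% of genes in Tyk2-/- and 3.8% in Tyk2K923E, and in Itgav as higher in Tyk2K923E (3.43%). Between the mutants 0 of 10 chains passed in limma, paired or unpaired, where 0.0238% of genes passed in either fit. An unadjusted p under 0.05 was reached there by 4 chains in the paired fit and by 2 in the unpaired fit, where 2.41% of genes reached it. In the paired fit these were Itga1, Itgam and Itgb3, lower in Tyk2-/- (4.89% of genes), and Itga2, higher (4.79%). The mutants did not overlap in Itga1, lower in Tyk2-/- (2.62% of genes), and in Itga2, higher (2.89%). The 10 chains were chosen with earlier results on some of them known, so these counts describe the list and do not test it.

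Of the other integrin chains, 8 of 16 were bright enough to test, and none passed. Among 5 other alpha chains tested, 4 were higher than WT in each mutant. At an unadjusted limma p under 0.05, 3 were higher in Tyk2-/- (4.42% of all genes) and 1 was lower in Tyk2K923E (5.14%). Among 3 other beta chains tested, 2 were lower in each mutant, with 1 at an unadjusted limma p under 0.05, in Tyk2K923E. In Tyk2-/- Itga3 differed from WT by 0.36 and Itga5, the fibronectin receptor chain, by 0.20 (limma adjusted p = 0.45 and 0.368). In Tyk2K923E Itga3 differed from WT by 0.27 and Itga7, a laminin receptor chain, by -0.16 (limma adjusted p = 0.521 and 0.484). Itgb7, a second beta partner of Itga4, was at 9.24 ± 0.23 in WT, 8.87 ± 0.32 in Tyk2K923E and 9.27 ± 0.23 in Tyk2-/- (SD, n = 3), a difference of -0.38 in Tyk2K923E that did not pass (limma adjusted p = 0.168). It stood 0.40 higher in Tyk2-/- than in Tyk2K923E (limma adjusted p = 0.389).

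The wider adhesion machinery gave no call. Over 101 listed genes, which include the 16 other chains, 66 were tested and 0 passed in any of the 3 comparisons in limma. At an unadjusted p under 0.05, 1 was lower and 6 were higher in Tyk2-/- against WT, where 4.66% of all genes were lower and 4.42% higher. In Tyk2K923E 10 were lower and 4 higher, against 5.14% and 4.87% of all genes. The median over these genes was -0.03 against WT in both mutants. Vcl (vinculin, which couples talin to actin) differed from WT by 0.30 in Tyk2K923E and 0.24 in Tyk2-/-. Lpxn (leupaxin, a paxillin relative) differed by -0.33 in Tyk2K923E, and Bcar1 (the scaffold p130Cas) by 0.20 in Tyk2-/-. Of the genes listed for integrin activation, Rasgrp2, which switches on Rap1, differed by -0.27 in Tyk2K923E and Skap1, an adaptor, by -0.15. Itgb1bp1, which binds the tail of Itgb1, differed by -0.13 in Tyk2-/- and Tln1 (talin) by 0.12. The list does not give the direction in which each gene acts. Of the ligands, Icam1 differed by -0.29 and Lamc1, a laminin chain, by 0.37 in Tyk2K923E, where the receptors Cd2 and Cd96 differed by -0.48 and -0.26. In Tyk2-/- Lamc1 differed by 0.24, Cd226 by -0.29, Cd2 by -0.22 and Cd48 by -0.12. The limma adjusted p of these differences ran from 0.181 to 0.712. Between the mutants 3 of the 66 genes were lower and 6 higher in Tyk2-/- at an unadjusted p under 0.05, with a median of 0.03, and Rasgrp2 and Icam1 differed by 0.41 and 0.27 (limma adjusted p = 0.452 for both).

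The genes tested whose values were most like those of Itga1, by the mean absolute difference over 9 arrays of log2 values centred within experiments, were Gstp3 (0.06), Gm19705 (0.06), Fcgr3 (0.06), Gsap (0.07) and Slc25a45 (0.08). Fcgr3, the Fc receptor CD16 of NK cells, differed from WT by -0.47 in Tyk2-/- and -0.32 in Tyk2K923E (limma adjusted p = 0.0813 and 0.156). For Itga2 they were Phf11b (0.07), Lgals3bp (0.09), BC147527 (0.09), Cd160 (0.09) and Oas3 (0.09). Of these genes, picked for their likeness to Itga2, Lgals3bp, a secreted glycoprotein, and Cd160, an NK cell receptor, fell in Tyk2K923E by 0.63 and 0.68 (limma adjusted p = 0.0375 for both, paired), and neither passed unpaired (adjusted p = 0.379 and 0.155). Oas3, an interferon-induced antiviral enzyme, differed from WT by -0.58 in Tyk2K923E without passing.

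Markers of other cells moved in part with the chains. In bulk RNA, fewer cells of a type and less RNA per cell cannot be told apart. Of 10 T cell markers tested, 10 were lower in Tyk2K923E than in WT and 9 in Tyk2-/-, with medians of -0.37 and -0.10. Of all genes 49.1% and 48.1% were lower. At an unadjusted p under 0.05, 5 of the 10 were lower in Tyk2K923E and 0 in Tyk2-/-, against 5.14% and 4.66% of all genes. The summed level of the T cell list was 12.72 to 13.25 in WT, 12.49 to 12.79 in Tyk2K923E and 12.75 to 13.24 in Tyk2-/-. Its range was lowest, with some overlap, in Tyk2K923E, and nearly the same in Tyk2-/- as in WT. The bright genes Cd3e and Cd3g dominate this sum. Of 7 markers of type 1 innate lymphoid cells with a probe set, Itga1 itself made up 38.0% to 53.3% of the summed level, so the list was summed without it. The other 6 summed to 10.12 to 10.54 in WT, 9.59 to 10.26 in Tyk2K923E and 10.04 to 10.22 in Tyk2-/-. Among them Cxcr6, a chemokine receptor of these cells, differed from WT by -0.72 in Tyk2-/- and -0.62 in Tyk2K923E (limma adjusted p = 0.0915 and 0.103), and Il7r lay under the median on all arrays. Means in WT, Tyk2K923E and Tyk2-/- were 7.54, 6.98 and 7.35 for Tnfsf10 and 8.54, 8.29 and 8.42 for Tmem176a. They were 8.72, 8.59 and 8.57 for Tmem176b. Cd200r1, with 5.66, 5.45 and 5.82, was higher in Tyk2-/- than in WT. Of the 6 markers of this list that were tested, Itga1 included, 6 were lower than WT in Tyk2K923E and 5 in Tyk2-/-. At an unadjusted limma p under 0.05, 3 and 2 were lower, against 5.14% and 4.66% of all genes. Basophils carry CD49b as well, and their list summed to 10.52 to 10.83 in WT, 10.97 to 11.51 in Tyk2K923E and 10.81 to 11.47 in Tyk2-/-. Mcpt8 led it, with means of 10.06 in WT, 10.83 in Tyk2K923E and 10.56 in Tyk2-/-. Cpa3, with 6.33, 7.24 and 6.31, was higher than WT in Tyk2K923E only, and Kit had 8.61, 8.87 and 8.90. In the list 7 of 10 markers, Fcer1a among them, lay under the median on all arrays. The part of these cells in the differences of Itga1 and Itga2 was not tested.

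Markers of myeloid cells were mixed beside Itgam and Itgax, with some dim, some bright and some lower in the mutants. Of 10 monocyte and macrophage markers with a probe set, Adgre1, Mrc1 and Fcgr1 lay under the median on all 9 arrays and Cd68, Ly6c2, C1qa and Cd14 were tested. Ly6c2, which lymphocytes express too, differed from WT by -0.52 in Tyk2-/- and -0.66 in Tyk2K923E, Cd68 (7.78 to 8.86 over all arrays) by -0.08 and -0.24, and C1qa by -0.13 and -0.17. Cd14 ran the other way, with 0.20 and 0.42. The summed level of the monocyte list, carried by Ly6c2, was 12.06 to 12.78 in WT, 11.42 to 12.15 in Tyk2K923E and 11.57 to 12.27 in Tyk2-/-.

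Of 9 dendritic cell markers, Flt3, Xcr1, Siglech and Clec10a lay under the median on all arrays, whereas Cd209a (10.14 to 10.87) and H2-Ab1 (8.60 to 10.04), an MHC class II chain, were bright. In Tyk2-/- H2-Ab1 differed from WT by -0.28 and Cd209a by -0.07, and in Tyk2K923E by -0.18 and -0.03. The dendritic cell list summed to 10.98 to 11.58 in WT, 10.81 to 11.56 in Tyk2K923E and 10.99 to 11.20 in Tyk2-/-. Of 11 neutrophil markers 7 lay under the median on all arrays and 3 were tested, each lower than WT in both mutants. Mmp9, a gelatinase, differed by -0.49 in Tyk2-/- and -0.54 in Tyk2K923E, and Ly6g by -0.34 and -0.09. The neutrophil list summed to 8.43 to 8.52 in WT, 8.37 to 8.47 in Tyk2K923E and 8.25 to 8.45 in Tyk2-/-. None of these myeloid markers passed in limma, with adjusted p of 0.102 to 0.966.

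The B cell list had 7 of 8 markers under the median on all arrays, the erythroid list 2 of 3 and the stromal and endothelial list 4 of 9. The stromal list, carried by Pecam1, summed to 11.23 to 11.46 in WT, 11.46 to 11.72 in Tyk2K923E and 11.22 to 11.53 in Tyk2-/-. Pecam1 (10.97 to 11.54 over all arrays) is also among the listed adhesion receptors of NK cells. It differed from WT by 0.30 in Tyk2K923E and 0.08 in Tyk2-/- (limma adjusted p = 0.268 and 0.809). The NK cell list summed to 15.39 to 15.46 in WT, 15.41 to 15.45 in Tyk2K923E and 15.37 to 15.44 in Tyk2-/-, a sum that its brightest genes such as Gzmb and Prf1 dominate. Marker by marker, 8 of 13 were lower and 5 higher in Tyk2-/-, and 7 were lower and 6 higher in Tyk2K923E. At an unadjusted p under 0.05, 5 of 13 were lower in Tyk2-/- (Klrb1c, Klrk1, Klrd1, Cd244a and Fcgr3) and none was higher. Of all genes 4.66% were lower and 4.42% higher there. In Tyk2K923E 4 were lower (Klrk1, Klrd1, Tbx21 and Fcgr3) and Prf1 was higher, against 5.14% and 4.87% of all genes. The activating receptor Klrk1 (NKG2D) differed from WT by -0.32 in Tyk2-/- and -0.47 in Tyk2K923E, and Klrd1 (CD94) by -0.35 in both, so the means of both receptors were lower in the mutants, as were those of the 4 chains. After adjustment 0 of 13 passed in limma. The part of NK cell makeup and of other cells in the differences of the 4 chains was not tested.

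**Figure D4:**
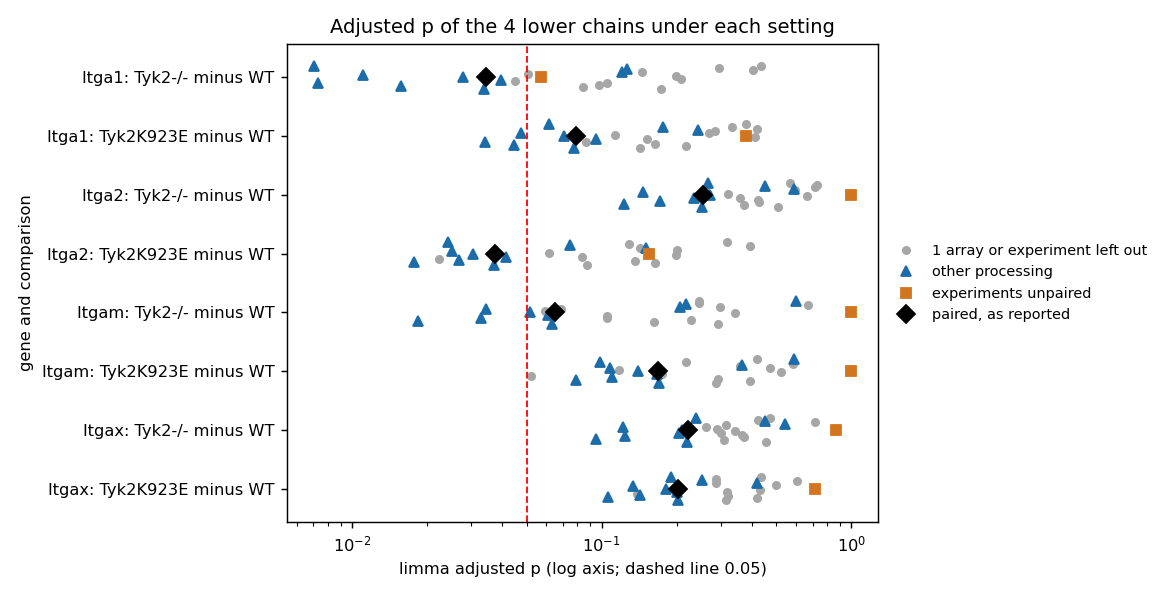
Limma adjusted p (x axis, log scale, dashed line at 0.05) of Itga1, Itga2, Itgam and Itgax against WT in both mutants (y axis), with a black diamond for the paired fit, an orange square for the unpaired fit, blue triangles for other processing and grey circles for fits without 1 array or experiment. Itga1 in Tyk2-/- and Itga2 in Tyk2K923E lie on both sides of the line, and no setting brings Itgax under it.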

How the data were processed

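The deposited table holds 41345 probe sets on 9 arrays as log2 values (1.10 to 14.1), which the authors normalised with RMA in Partek 6.6, per the submitters' processing notes; the RMA version and genome build are not given in the sources used here. Probe sets were named through the platform annotation: 23521 carried 1 gene symbol, 1814 several and 16010 were not listed. The brightest probe set stood for a gene, and all 10 members matched RefSeq by Entrez ID. Genes were compared with limma 3.58.1 in R 4.3.3 (lmFit and eBayes, genotype plus experiment, 9 arrays), which the shared experiment numbers allow. Deviations from the genotype means correlated at 0.383 to 0.787 in 9 pairs of arrays of the same experiment and at -0.71 to 0.559 in 18 other pairs. All negative values came from pairs with 1 array of experiment 1. Pairs across experiments 2 and 3 ran from 0.253 to 0.559 and overlapped the pairs within these experiments (0.383 to 0.600). The correlations thus show that experiment 1 differed and do not bear on the pairing of experiments 2 and 3. Mice of 1 culture were pooled, so SDs are over cultures. Figures were drawn with matplotlib 3.10.9 in Python 3.11.15.

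Named were all members, per pathway list and comparison the genes past the threshold and up to 2 with the smallest p, and for Itga1 and Itga2 the 5 genes of most similar pattern; neighbouring genes and single markers were chosen after their values were seen. The members and lists were chosen with earlier results of these data known. Summed levels of marker lists are log2 of the sum of linear values; the sum without Itga1 was chosen after seeing the data. A simulation of Tyk2-/- minus WT with 12579 genes held planted shifts. The paired fit found 77.6% of 67 genes shifted by log2 0.5, 97.0% of 67 shifted by 1 and 98.5% of 66 shifted by 2. Beside these recovered genes it made 10 false calls among the genes without a shift. On the real arrays 11 genes passed in this comparison, and Itgam, at -1.18, did not. An adjusted p depends on how many other genes differ. The simulated rates therefore give neither the power of the fit on these arrays nor the number of false calls among the 11. Promoter windows come from RefSeq, where 7 of 10 members had one.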

Additional observations from a re-analysis of the deposited data

How the results depend on the processing

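The number of chains called is small and moved with the settings. Against the 1 chain called in Tyk2-/- minus WT, 0 were called without the replicate block (adjusted p of Itga1 0.0571), with only the 2 genotypes in the paired fit, without the filter on dim probe sets and at a threshold of 0.01, and 2 (Itga1 and Itgam) with a 70th percentile filter, an intensity trend, array weights and at a threshold of 0.1. Against the 1 chain called in Tyk2K923E minus WT, the same settings gave 0 and 2 (Itga1 and Itga2). Without 1 array or experiment 0 to 1 chain was called in both, and between the mutants 0 were called in all 24 alternatives. A random block, median centring, quantile normalisation and the mean over probe sets gave the same counts. Fits without an array or experiment have fewer residual degrees of freedom, and no filter means more genes tested. Over all genes, 11, 11 and 3 were called in the 3 comparisons, with 3 to 26, 1 to 66 and 2 to 6 over the alternatives.

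Of 660 log2 differences of the chains under 22 alternatives, 599 kept direction and side of the threshold, 28 lost the call, 6 gained it and 27 changed sign, the last in 8 comparisons with differences near 0. Itgal in Tyk2-/- minus WT turned to -0.00746 with quantile normalisation and -0.0406 with array weights, Itgb2 in Tyk2K923E minus WT to -3.97e-04 and -0.00555 with median centring and quantile normalisation, and Itga4 between the mutants to 0.00791 with median centring. Without 1 array or experiment, Tyk2-/- minus WT ran from -0.10 to 0.0728 in Itgal and -0.0049 to 0.0243 in Itgb2, Tyk2K923E minus WT from -0.0367 to 0.087 in Itgb1 and -0.00671 to 0.022 in Itgb2, and Tyk2-/- minus Tyk2K923E from -0.15 to 0.10 in Itga4, -0.11 to 0.0127 in Itgav, -0.0134 to 0.18 in Itgal and -0.00701 to 0.015 in Itgb2. The median of all genes stayed between -0.01 and 0.02 under every scaling. Signal over background is not given in the sources used here, so how firmly the dimmer values are measured is not known.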
